A study of Mus musculus with 24 samples.

Results

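The genes described here write and keep 2 repressive chromatin marks: methyl groups on DNA and methyl groups on lysine 27 of histone H3. The rule took every probe set (a set of short oligonucleotides that measures 1 transcript) whose annotation names 1 of 9 genes alone: the DNA methyltransferases Dnmt1, Dnmt3a and Dnmt3b, the methylation cofactor Uhrf1, the polycomb repressive complex 2 (PRC2) genes Ezh1, Ezh2, Eed and Suz12, and the histone H3 lysine 9 methyltransferase Suv39h1. It found 25 probe sets of 45137, which covered 8 of the 9 genes; Suv39h1 was not analysed here. They were measured in C2C12 cells, a mouse myoblast line that stops dividing and forms myotubes in differentiation medium (DM), and that keeps dividing in growth medium (GM). The question, per the design text, was how interference with the RNA helicases p68 and p72 affects muscle gene expression. The labels name a short hairpin RNA (shRNA) against p68 alone, the product of Ddx5.

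The groups were shRNA cells in DM, vector cells in DM, shRNA cells in GM and vector cells in GM. Every group carried the pSuperR vector: with the p68 hairpin in the shRNA cells, empty in the vector cells. The sources used here do not give whether each line was a clone or a pool or how long cells spent in DM, and 1 cell line was used. Total RNA was hybridised to arrays of 2 designs, called MA and MB after the end of their titles, with 3 arrays per group and design. The MA design held 22 of the probe sets and the MB design 3, for Dnmt1 and Ezh1. The labels do not state separate cultures for the replicates. The p-values therefore cover the scatter of the arrays at hand, possibly technical alone, and the number of arrays limits the precision.

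DNA methylation is copied after replication by Dnmt1, which Uhrf1 recruits to half-methylated DNA, whereas Dnmt3a and Dnmt3b set new methyl groups. PRC2 methylates lysine 27 of histone H3 through Ezh2 or its relative Ezh1, and needs the core subunits Eed and Suz12 for activity. In myoblasts Ezh2 is known for keeping muscle genes silent, and Dnmt1, Uhrf1 and Ezh2 are known as genes that dividing cells express through E2F transcription factors.

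Because 3 of the genes with the widest differences here are of that E2F-regulated kind, promoter windows of the 9 genes (250 bases before to 50 after the transcript start, RefSeq, GRCm38.p6, 15 windows) were searched on both strands for the E2F words TTTCCCGC, TTTCGCGC, TTTGCCGC and TTTGGCGC. At least 1 word stood in a window of 5 of the 9 genes, Dnmt1, Uhrf1, Ezh2, Suz12 and Suv39h1, and in 2.6% of the 27025 genes with a window. By window, 5 of the 15 held a word, against 2.26% of all 32851 windows. Windows of Dnmt3a, Dnmt3b, Eed and Ezh1 held none of these letters. The word TTTGAA, the cell cycle homology region, stood in windows of 4 of the 9 genes, against 20.23% of all genes. These were Dnmt3b, Eed, Suz12 and Dnmt1, the last in a window without an E2F word. By window, 4 of the 15 held TTTGAA, against 17.89% of all windows, and nothing is read from this count. No window of Uhrf1, Ezh2, Ezh1, Dnmt3a or Suv39h1 held TTTGAA. A match is a description of letters and not a binding site. The windows of Dnmt1, Uhrf1 and Ezh2 that hold a word are shown because these genes carry the results below, and that of Ezh1 because it is the counterpart of Ezh2; each is written 5′ to 3′ on the strand of its gene, with E2F words in capitals. They lie at chr9:20952574-20952873 (Dnmt1, minus strand), chr17:56304063-56304362 (Uhrf1, plus strand), chr6:47594981-47595280 (Ezh2, minus strand) and chr11:101226414-101226713 (Ezh1, minus strand).
Dnmt1: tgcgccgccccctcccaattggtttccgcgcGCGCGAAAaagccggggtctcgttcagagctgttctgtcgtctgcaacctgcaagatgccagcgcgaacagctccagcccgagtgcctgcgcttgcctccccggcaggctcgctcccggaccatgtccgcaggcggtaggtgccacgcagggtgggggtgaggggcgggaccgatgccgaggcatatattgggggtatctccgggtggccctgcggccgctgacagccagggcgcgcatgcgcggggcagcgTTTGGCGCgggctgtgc
Uhrf1: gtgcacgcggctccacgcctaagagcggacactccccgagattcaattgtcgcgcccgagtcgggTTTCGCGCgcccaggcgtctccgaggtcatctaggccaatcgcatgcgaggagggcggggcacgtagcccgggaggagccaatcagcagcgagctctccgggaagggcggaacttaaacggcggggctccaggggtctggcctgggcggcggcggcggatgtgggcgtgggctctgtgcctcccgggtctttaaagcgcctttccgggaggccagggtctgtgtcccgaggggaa
Ezh2: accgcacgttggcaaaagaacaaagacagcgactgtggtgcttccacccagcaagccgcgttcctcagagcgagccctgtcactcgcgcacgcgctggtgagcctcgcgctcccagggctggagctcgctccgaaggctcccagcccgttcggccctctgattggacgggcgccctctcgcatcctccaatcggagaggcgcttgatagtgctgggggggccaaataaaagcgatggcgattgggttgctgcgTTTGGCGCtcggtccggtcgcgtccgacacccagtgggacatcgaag
Ezh1: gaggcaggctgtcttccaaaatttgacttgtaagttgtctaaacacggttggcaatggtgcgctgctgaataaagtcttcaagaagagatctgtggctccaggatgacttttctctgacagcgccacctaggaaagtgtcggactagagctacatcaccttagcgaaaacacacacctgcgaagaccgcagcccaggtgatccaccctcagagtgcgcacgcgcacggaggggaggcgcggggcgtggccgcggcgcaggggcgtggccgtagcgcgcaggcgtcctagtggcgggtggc
In the Dnmt1 window TTTCGCGC stood on the opposite strand at base -219 from the start and TTTGGCGC at base 34; Uhrf1 had TTTCGCGC at -185 and Ezh2 TTTGGCGC at 4.

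The values are signals on a linear scale, which were deposited already scaled, with a trimmed mean of 148.6 to 149.3 in every array. Changes were tested as differences of log2(signal + 15) with limma, which understates the change of low signals, over all probe sets that reached a signal of 30 in at least 3 of the 12 arrays of a design. That left 14367 MA and 19303 MB probe sets, among them 13 of the 22 MA and all 3 MB members. An adjusted p is limma's with Benjamini-Hochberg adjustment over all of them, at a threshold of 0.05. Replicate 3 of vector cells in DM stood farthest from its own group among the MA arrays, with a mean correlation of 0.951 against 0.962 to 0.983, and replicate 2 of the same group among the MB arrays, at 0.825 against 0.835 to 0.886. Where the call of a member changed without the MA array, the value without it is given. All 12 muscle genes of a fixed list, among them Myog, Ckm and Myh3, were higher in DM than in GM in both cell lines, with median log2 changes of 5.96 in shRNA cells and 6.21 in vector cells. Ddx5 had 373.1, 302.5 and 302.5 in shRNA cells in DM, against 673.5, 541 and 407.9 in vector cells in DM, a log2 change of -0.68 ± 0.16 (standard error) with an adjusted p of 0.00677. In GM it had 351.4, 388.3 and 376.5 in shRNA cells, against 483.3, 420.4 and 489.2 in vector cells. That difference, -0.31 ± 0.16, did not pass in limma (adjusted p 0.287). The groups did not overlap, as was so in that direction for 12.5% of all tested MA probe sets. For shRNA against vector, 12.3% to 18.4% of all lay apart in a given direction and medium. For DM against GM, 25.1% to 28% lay apart in a given direction and line, so a lack of overlap is common here.

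Among the 13 tested MA members, 3 were higher and 5 were lower in shRNA cells in DM than in GM, where 16.3% of all tested probe sets were higher and 17.5% lower. The lower ones belonged to Dnmt1, Uhrf1 and Ezh1, and the higher ones to Dnmt3a and Suz12. In vector cells 3 were higher and 6 lower, against 23.9% and 25.4% of all; the lower ones belonged to Dnmt1, Uhrf1, Ezh2 and Ezh1, and the higher ones to Dnmt3a and Eed. The Dnmt3a sets, 2 of the 3 higher in vector cells and 1 of the 3 in shRNA cells, reached 30 only in DM arrays, so the filter itself fixed part of their direction, and nothing is read from these counts of higher members. Without replicate 1 of shRNA cells in DM, 1 and not 3 was higher in shRNA cells. In DM, 5 were higher and 0 lower in shRNA than in vector cells, where 10.7% of all were higher and 6.24% lower; those 5 belonged to Dnmt1, Uhrf1 and Ezh2. In GM limma called 0 of 13 in either direction, and 0 had an unadjusted p under 0.05, with 3.99% of all tested probe sets higher and 2.57% lower. The shRNA difference itself was larger in DM than in GM for 3 of 13, both probe sets of Uhrf1 and 1 of Dnmt1, against 5.48% of all, and smaller for 0, against 4.48%. These comparisons share arrays: vector cells in DM enter the second, the third and the last. Probe sets of 1 gene measure the same RNA and are not replicates.

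**Figure D1:**
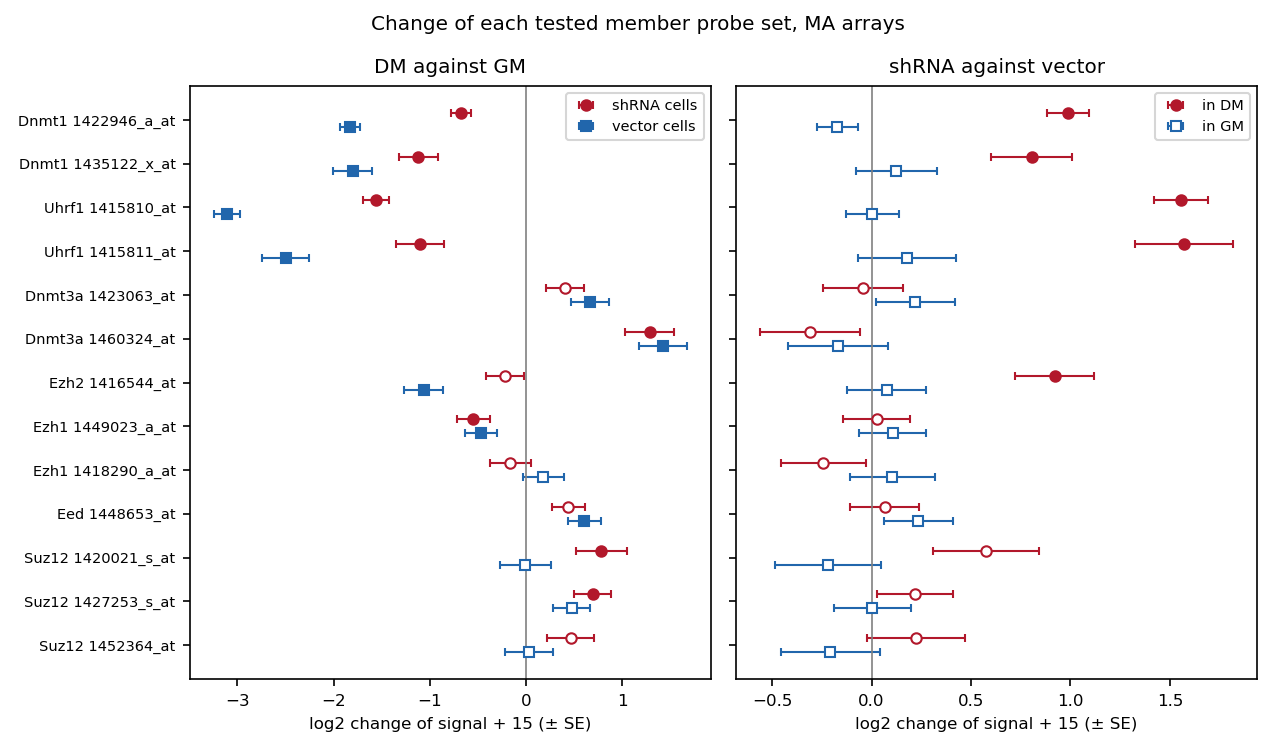
Log2 change of each tested MA probe set of the members, with bars for the standard error, for DM against GM in both cell lines and for shRNA against vector in both media (limma on 12 arrays, 3 per group). Dnmt1 and Uhrf1 lie far below 0 for DM against GM and above 0 for shRNA against vector in DM, and lie near 0 for shRNA against vector in GM.

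The maintenance genes Dnmt1 and Uhrf1 were lower in DM in both lines. Dnmt1, which copies methylation onto new DNA strands, had 359.7, 365.9 and 377.2 in shRNA cells in DM and 166.6, 185.9 and 181.5 in vector cells in DM at its brightest MA probe set, 1422946_a_at. In GM it had 541.4, 611.3 and 634.2 in shRNA cells and 633.4, 662.8 and 721.4 in vector cells. Every DM array was below every GM array, and in DM every shRNA array was above every vector array. In shRNA cells the log2 change of DM against GM was -0.67 ± 0.10 (adjusted p 0.000166), and DM kept 61.7% of the mean signal in GM. In vector cells it was -1.83 ± 0.10 (adjusted p 2.4e-09), with 26.4% kept. Within DM the shRNA cells were higher by 0.99 ± 0.10 (adjusted p 1.73e-05), whereas in GM the difference was -0.17 ± 0.10 (adjusted p 0.395), and the gap between these differences was 1.16 ± 0.15 (adjusted p 0.000206). The order of the groups was thus vector cells in DM, shRNA cells in DM, then both GM groups, which did not differ beyond their spread. In bulk RNA, fewer cells that express a gene and less of its RNA per cell cannot be told apart.

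The other Dnmt1 probe sets moved the same ways with more spread. Both carry the suffix of probe sets that may match other transcripts. The MA set 1435122_x_at had 173.7, 226 and 210.4 in shRNA cells in DM, 123.6, 112.6 and 93.65 in vector cells in DM, 594.5, 459.2 and 349.3 in shRNA cells in GM and 543.3, 314.4 and 426.8 in vector cells in GM. It was lower in DM in both lines (-1.12 ± 0.20 in shRNA and -1.80 ± 0.20 in vector cells) and higher with the shRNA in DM by 0.81 ± 0.20 (adjusted p 0.013, or 0.0597 without replicate 2 of shRNA cells in DM), while the gap between media, 0.68, did not pass (adjusted p 0.167). The MB set 1447877_x_at had 374.5, 471 and 292.6 in shRNA cells in DM, 56.55, 43 and 29.59 in vector cells in DM, 1223, 751 and 451 in shRNA cells in GM and 560, 758.7 and 786.4 in vector cells in GM. Vector cells in DM stood apart from the other 3 groups, and DM kept 46.9% of the mean signal in GM in shRNA cells, against 6.1% in vector cells. Its log2 change in shRNA cells was -0.98 ± 0.31, which did not pass (adjusted p 0.0861; 0 of 3 members called, with 2.27% of all tested higher and 2.57% lower) but passed without replicate 3 of shRNA cells in GM (-1.33, adjusted p 0.0155). In vector cells it was -3.64 ± 0.31 (adjusted p 1.19e-07), 1 of the 3 MB members lower where 5% of all were, and 0 higher where 4.21% were. In DM it was 2.77 ± 0.31 higher with the shRNA (adjusted p 0.000103; 1 of 3 higher and 0 lower, with 0.782% and 0.389% of all). The gap between media was 2.66 ± 0.44 (adjusted p 0.00753; 1 of 3 higher and 0 lower, with 0.223% and 0.166% of all), and its adjusted p was 0.156 when limma's spread did not follow the mean signal. In GM 0 of the 3 MB members passed in limma and 0 had an unadjusted p under 0.05, with 0.207% of all higher and 0.0673% lower.

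Uhrf1, which reads half-methylated DNA for Dnmt1, had 137.5, 132.8 and 169.9 in shRNA cells in DM and 49.89, 31.8 and 38.82 in vector cells in DM at 1415810_at. In GM it had 451.4, 450.4 and 472.9 in shRNA cells and 445.1, 455.2 and 470.9 in vector cells. In DM the lowest shRNA array was above the highest vector array, while in GM the groups interleaved. DM was lower than GM by -1.56 ± 0.14 in shRNA cells (adjusted p 5.97e-07) and by -3.11 ± 0.14 in vector cells (adjusted p 1.51e-10), with 32.1% and 8.8% of the mean signal kept. The shRNA difference reached 1.56 ± 0.14 in DM (adjusted p 3.77e-06), against 0.00 ± 0.14 in GM (adjusted p 0.993), and the gap between media was 1.55 ± 0.19 (adjusted p 0.000168). The dimmer set 1415811_at had 57.18, 81.94 and 94.01 in shRNA cells in DM, 18.89, 26.12 and 5.815 in vector cells in DM, 153.6, 172.9 and 223.4 in shRNA cells in GM and 125.8, 159.2 and 197.9 in vector cells in GM. Every array of vector cells in DM was under 30 here, so differences from that group rest on the pseudocount. The set passed in the same 4 comparisons, with a gap between media of 1.39 ± 0.35 (adjusted p 0.0206) that was lost when any 1 of 4 arrays was left out (replicates 2 and 3 of shRNA cells in DM, 2 of shRNA cells in GM and 4 of vector cells in GM), at adjusted p up to 0.0565. With pseudocounts of 50 and 1 this gap was 0.78 and 2.13, and the change in vector cells was -1.65 and -3.37.

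**Figure D2:**
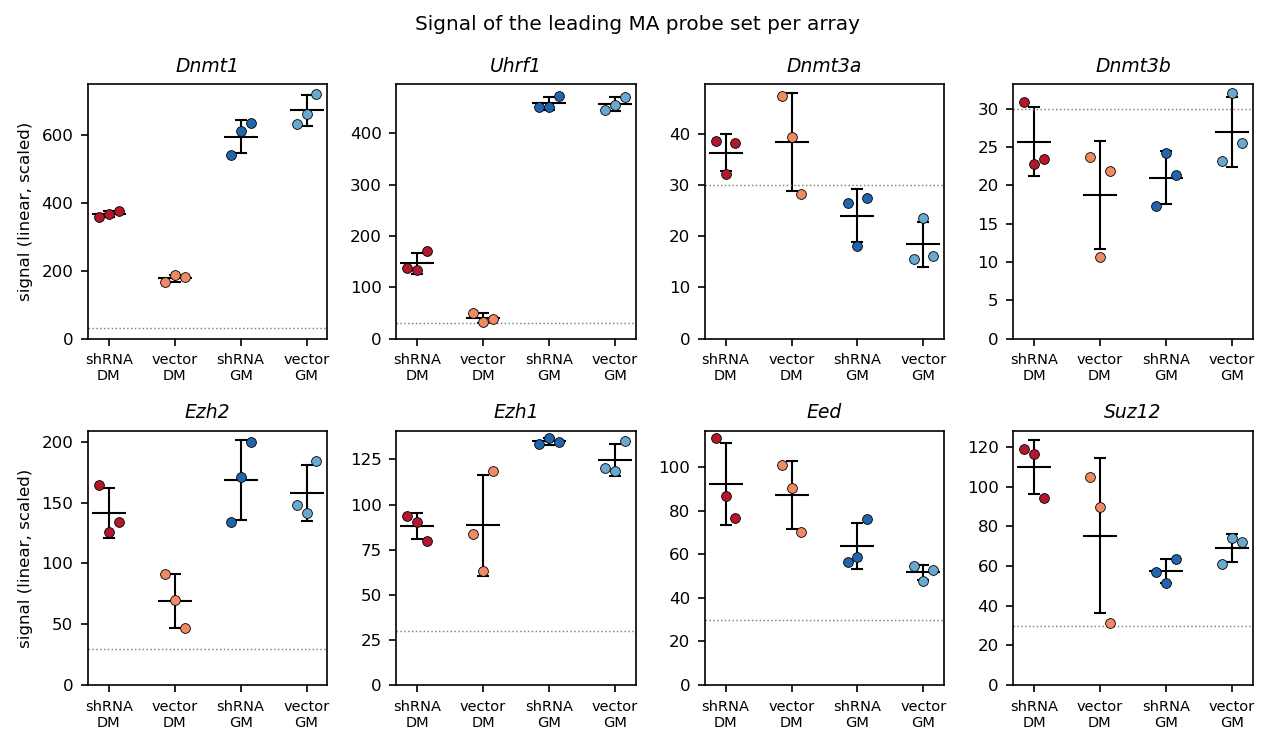
Signal of the leading MA probe set of each member in every array, on a linear axis. Groups stand in the order shRNA DM, vector DM, shRNA GM and vector GM. Points are single arrays, and horizontal marks are group means with bars for the standard deviation. For Dnmt1 and Uhrf1 the vector cells in DM lie lowest and the shRNA cells in DM between them and the GM arrays.

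The de novo enzymes were measured near the lower limit of the arrays. Dnmt3a, which sets new methyl groups, was tested at 2 of its 5 probe sets, and both reached 30 only in DM arrays. Their direction against GM was therefore partly fixed by that filter, which their adjusted p-values do not account for. Both kept their calls in vector cells without the filter, but their signals are the same there, so this does not settle the direction. No rise in DM is read from them. The first, 1423063_at, had 38.8, 32.23 and 38.25 in shRNA cells in DM, 47.48, 39.56 and 28.34 in vector cells in DM, 26.58, 18.04 and 27.56 in shRNA cells in GM and 15.68, 23.59 and 16.23 in vector cells in GM. DM lay above GM without overlap in both lines, and the change did not pass in shRNA cells (0.40 ± 0.20, adjusted p 0.139) and passed in vector cells (0.67 ± 0.20, adjusted p 0.0123, or 0.0598 without replicate 1 in DM). A test of the difference between the lines did not pass either (-0.26, adjusted p 0.637). The second, 1460324_at, had 34.74, 43.2 and 43.02 in shRNA cells in DM, 61.94, 54.63 and 44.69 in vector cells in DM, 4.084, 2.428 and 19.93 in shRNA cells in GM and 7.9, 9.904 and 14.03 in vector cells in GM. It was higher in DM by 1.29 ± 0.25 in shRNA cells (adjusted p 0.00115) and by 1.42 ± 0.25 in vector cells (adjusted p 0.000268). Every GM array there was under 30, so the size rests on the pseudocount: with 50 and 1 in its place the change was 0.63 and 2.53 in shRNA cells and 0.77 and 2.26 in vector cells. At both sets the shRNA made no difference that passed in either medium (-0.04 and -0.31 in DM). The other 3 sets stayed under 30 in every array, with a highest signal of 27.14.

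Dnmt3b, the other de novo enzyme, was tested at neither probe set. At 1418351_a_at it had 30.93, 22.81 and 23.46 in shRNA cells in DM, 23.7, 10.6 and 21.88 in vector cells in DM, 17.37, 24.29 and 21.41 in shRNA cells in GM and 23.24, 32.11 and 25.52 in vector cells in GM. At 1449052_a_at only 1 array, of vector cells in GM, reached 30, at 39.85. At both sets the shRNA and vector groups overlapped in each medium. In vector cells at 1449052_a_at, DM (6.913 to 20.31) lay below GM (23.42 to 39.85), as was so in that direction for 28% of all tested MA probe sets.

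Of the catalytic subunits of PRC2, Ezh2 was called lower in DM in vector cells but not in shRNA cells. Like Dnmt1 and Uhrf1, it was called higher with the shRNA in DM. Its probe set 1416544_at had 164.5, 125.5 and 134.4 in shRNA cells in DM, 91.34, 69.68 and 46.61 in vector cells in DM, 134.2, 170.8 and 199.8 in shRNA cells in GM and 148.4, 141.1 and 184.3 in vector cells in GM. Vector cells in DM lay below all other arrays, and the other 3 groups overlapped each other. In shRNA cells the change of DM against GM was -0.22 ± 0.20 (adjusted p 0.43), with 83.9% of the mean signal kept. In vector cells it was -1.07 ± 0.20 (adjusted p 0.000404), with 43.8% kept. The shRNA cells were higher in DM by 0.92 ± 0.20 (adjusted p 0.0048), and in GM the difference was 0.08 ± 0.20 (adjusted p 0.887). The gap between media, 0.85 ± 0.28, did not pass (adjusted p 0.0726), so the shRNA difference is not shown to be larger in DM; it passed without replicate 1 of vector cells in DM (1.03, adjusted p 0.0224).

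Ezh1, the catalytic subunit that resting and differentiated cells are known to keep, had 93.85, 90.05 and 79.94 in shRNA cells in DM and 83.42, 63.31 and 118.7 in vector cells in DM at 1449023_a_at. In GM it had 133.3, 136.9 and 134.9 in shRNA cells and 120.5, 118.3 and 135 in vector cells. DM lay below GM in shRNA cells, while in vector cells replicate 3 in DM reached the range in GM. The change was -0.55 ± 0.17 in shRNA cells (adjusted p 0.0208) and -0.47 ± 0.17 in vector cells (adjusted p 0.0323), calls that were lost under 5 and 8 alternatives, among them leaving out any array of the compared groups but replicates 1 and 2 of shRNA cells in DM and replicate 3 of vector cells in DM. Without replicate 3 of vector cells in DM the change in vector cells was -0.67 and kept its call. The shRNA difference was 0.03 ± 0.17 in DM (adjusted p 0.944), with 0.11 ± 0.17 in GM (adjusted p 0.8). The other MA set, 1418290_a_at, passed in no comparison; its signals ran from 22.83 to 54.03 over the DM arrays and from 33.87 to 50.35 over the GM arrays. The MB set 1429629_at had 42.46, 54.42 and 54.1 in shRNA cells in DM, 62.53, 112 and 105.7 in vector cells in DM, 35.59, 58.03 and 25.63 in shRNA cells in GM and 99.43, 53.08 and 78.02 in vector cells in GM. The MB set 1429630_at had 57.08, 56.82 and 61.84 in shRNA cells in DM, 85.06, 120.8 and 61.97 in vector cells in DM, 58.71, 80.16 and 73.27 in shRNA cells in GM and 56.34, 11.35 and 80.34 in vector cells in GM. In DM the shRNA difference did not pass at 1429629_at (-0.70 ± 0.43, adjusted p 0.619) or at 1429630_at (-0.47 ± 0.48, adjusted p 0.816), where the ranges all but met, at 61.84 and 61.97. The fall in DM at 1449023_a_at was not shared by the other sets in vector cells. There the change was 0.18 ± 0.21 at 1418290_a_at, 0.24 ± 0.43 at 1429629_at and 0.85 ± 0.48 at 1429630_at, and none passed (adjusted p 0.356 to 0.834). In shRNA cells these sets had -0.165, 0.29 and -0.21, and none passed.

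The difference of Ezh1 1449023_a_at minus Ezh2 1416544_at within an array shows whether these probe sets changed unequally. Its height has no meaning across probe sets, and the other Ezh1 sets are not in it. On the log2 scale it was -0.72, -0.42 and -0.65 in shRNA cells in DM, -0.11, -0.11 and 1.12 in vector cells in DM, -0.01, -0.29 and -0.52 in shRNA cells in GM and -0.27, -0.23 and -0.41 in vector cells in GM. It was lower in shRNA than in vector cells in DM by -0.90 without overlap, and in vector cells it was higher in DM than in GM by 0.60. The exact two-sided permutation p was 0.1 for each, the smallest that 3 against 3 arrays allow, so neither could pass 0.05. Much of both came from replicate 3 of vector cells in DM: without it the values were -0.49 and 0.19. In shRNA cells DM differed from GM by -0.33 (exact permutation p 0.2), and in GM the cell lines differed by 0.03 (exact permutation p 1).

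**Figure D3:**
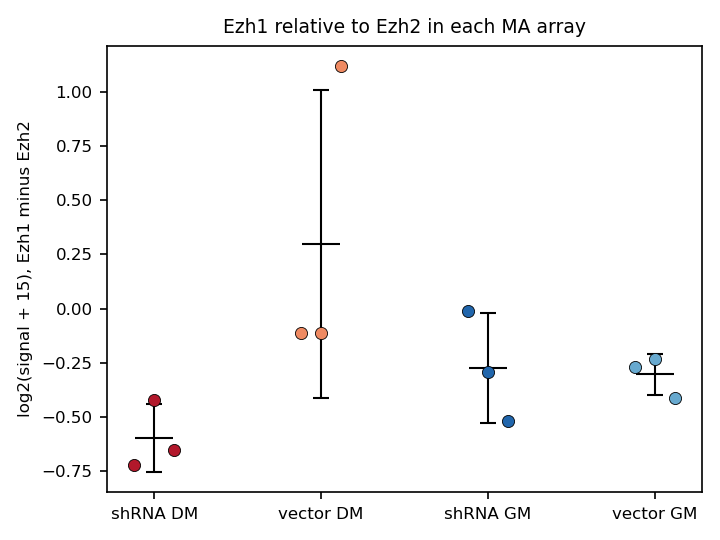
Log2 signal of Ezh1 1449023_a_at minus that of Ezh2 1416544_at in each MA array. Groups stand in the order shRNA DM, vector DM, shRNA GM and vector GM. Points are arrays, and horizontal marks are group means with bars for the standard deviation. The shRNA arrays in DM lie between -0.72 and -0.42, and 1 vector array in DM lies at 1.12, far from the other two of its group at -0.11.

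The core subunits were higher in DM where they passed. Eed, which binds methylated lysine 27 of histone H3 and stimulates the enzyme, had 113.2, 86.71 and 76.72 in shRNA cells in DM, 101.1, 90.45 and 70.27 in vector cells in DM, 56.61, 58.74 and 76.04 in shRNA cells in GM and 54.44, 47.79 and 52.68 in vector cells in GM at 1448653_at. DM lay above GM in both lines. In shRNA cells the change, 0.44 ± 0.17, did not pass (adjusted p 0.0626) unless replicate 3 of shRNA cells in DM, 4 of shRNA cells in GM or 3 of vector cells in DM was left out (adjusted p 0.0351 to 0.0456). In vector cells it was 0.61 ± 0.17 (adjusted p 0.00849). The difference between the lines was -0.17 (adjusted p 0.735). The shRNA difference was 0.07 in DM (adjusted p 0.848), with 0.24 in GM (adjusted p 0.503). The other Eed set, 1453830_at, stayed under 30.

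Suz12, the subunit that holds the complex together, had 118.9, 116.5 and 94.21 in shRNA cells in DM, 105, 89.95 and 31.24 in vector cells in DM, 56.85, 51.64 and 63.61 in shRNA cells in GM and 61.22, 73.95 and 72.29 in vector cells in GM at 1420021_s_at. In shRNA cells DM lay above GM and the change was 0.78 ± 0.27 (adjusted p 0.0346), a call lost under 8 alternatives, at adjusted p up to 0.102, among them leaving out any of its 6 arrays but replicate 3 of shRNA cells in DM. In vector cells replicate 3 in DM lay below every GM array and the change was -0.01 ± 0.27 (adjusted p 0.984), but without that array it was 0.42 (adjusted p 0.0338). The set 1427253_s_at had 91.22, 71.24 and 74.43 in shRNA cells in DM, 87.66, 71.94 and 43.18 in vector cells in DM, 45.79, 40.75 and 42.17 in shRNA cells in GM and 40.52, 43.43 and 44.2 in vector cells in GM. Its change was 0.69 ± 0.19 in shRNA cells (adjusted p 0.0117, or 0.0558 without replicate 1 in DM) and 0.48 ± 0.19 in vector cells (adjusted p 0.0512), which passed in vector cells without replicate 3 (0.71, adjusted p 0.00161). Without that array 5 of 13 members, and not 3, were higher in DM in vector cells. The set 1452364_at reached 30 in 3 arrays and passed in no comparison, and the remaining 3 Suz12 sets were not tested. The shRNA made no difference that passed at any Suz12 set in either medium, except at 1420021_s_at in DM without replicate 1 of vector cells (0.84, adjusted p 0.041).

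The genes around these enzymes were followed with gene lists, 1 probe set per gene, on the MA design unless stated. The median log2 change of all tested probe sets was 0.01 for DM against GM in vector cells and 0.05 for shRNA against vector in DM. Of all tested MA probe sets 23.9% were higher and 25.4% lower in the first, and 10.7% and 6.24% in the second. On the MB design these were 4.21% and 5%, and 0.782% and 0.389%. List counts near these shares are what any genes would show, and nothing is read from them. Of 5 tested methylation readers and cofactors, 4 fell in vector cells in DM and 0 rose, with a median of -0.47; they included Mbd3 (-0.66 ± 0.12) and Mbd2 (-0.58 ± 0.19), members of the methyl-CpG-binding family, and Dmap1 (-0.47 ± 0.15), a Dnmt1 partner. In DM with the shRNA Mbd3 was higher (0.41 ± 0.12, adjusted p 0.0231) and Mbd1 lower (-0.40 ± 0.11, adjusted p 0.0189), with a median of 0.03. On the MB design 0 of 4 passed. Of 4 tested demethylation genes, 2 rose and 1 fell in vector cells in DM, and 1 was higher and 1 lower with the shRNA in DM. Gadd45a, a stress-induced gene implicated in demethylation, rose in vector cells by 3.59 ± 0.20 and was lower with the shRNA in DM (-1.88). Its relative Gadd45b rose in vector cells by 0.52 ± 0.15, and its shRNA difference in DM, 0.42, did not pass (adjusted p 0.0626). Apex1, a base excision repair nuclease, fell by 0.86 in vector cells and was higher with the shRNA in DM (0.58). Tet2 and Tet3, which oxidise methyl groups on DNA, passed in neither comparison on the MB design.

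Of 7 PRC2 partners, 4 fell in vector cells in DM and 0 rose, with a median of -0.25. The largest changes were in Phf19 (-0.89 ± 0.17) and Phf1 (-0.54 ± 0.15), polycomb-like proteins that bring PRC2 to chromatin, and Rbbp7 (-0.67 ± 0.11), a histone-binding subunit. In DM with the shRNA 1 of 7 passed, Phf1, which was higher (0.49 ± 0.15, adjusted p 0.0301), and the median was 0.29. Of 13 genes of polycomb repressive complex 1, which binds the PRC2 mark, 2 rose and 6 fell with DM in the vector line, with a median of -0.47, among them Phc2 (-1.73 ± 0.11), Cbx6 (-1.44 ± 0.12) and Cbx2 (-1.28 ± 0.16). In DM with the shRNA 1 was higher, Yaf2 (0.54), and 1 lower, Pcgf6 (-0.66). On the MB design, 1 of 4 rose and 1 fell in vector cells, Pcgf3 (0.85) and Cbx7 (-1.31), and 0 passed for the shRNA in DM.

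Of 6 genes of histone H3 lysine 9 methylation and heterochromatin protein 1, 1 rose and 2 fell with DM in the vector line: Cbx5 (0.92 ± 0.12), a heterochromatin protein, rose, and Trim28 (-1.62 ± 0.13), a corepressor, and Ehmt2 (-0.68 ± 0.14), a lysine 9 methyltransferase, fell. Trim28 and Ehmt2 were higher with the shRNA in DM (0.57 and 0.45), 2 of 6. Of 7 demethylases of lysine 9 and 27, 2 rose in vector cells in DM, Kdm3a (1.00 ± 0.17) and Kdm4c (0.60 ± 0.21), and on the MB design Kdm6b, a lysine 27 demethylase, rose by 1.11 ± 0.17. For the shRNA in DM 0 of 7 and 0 of 3 of these passed in limma.

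**Figure D4:**
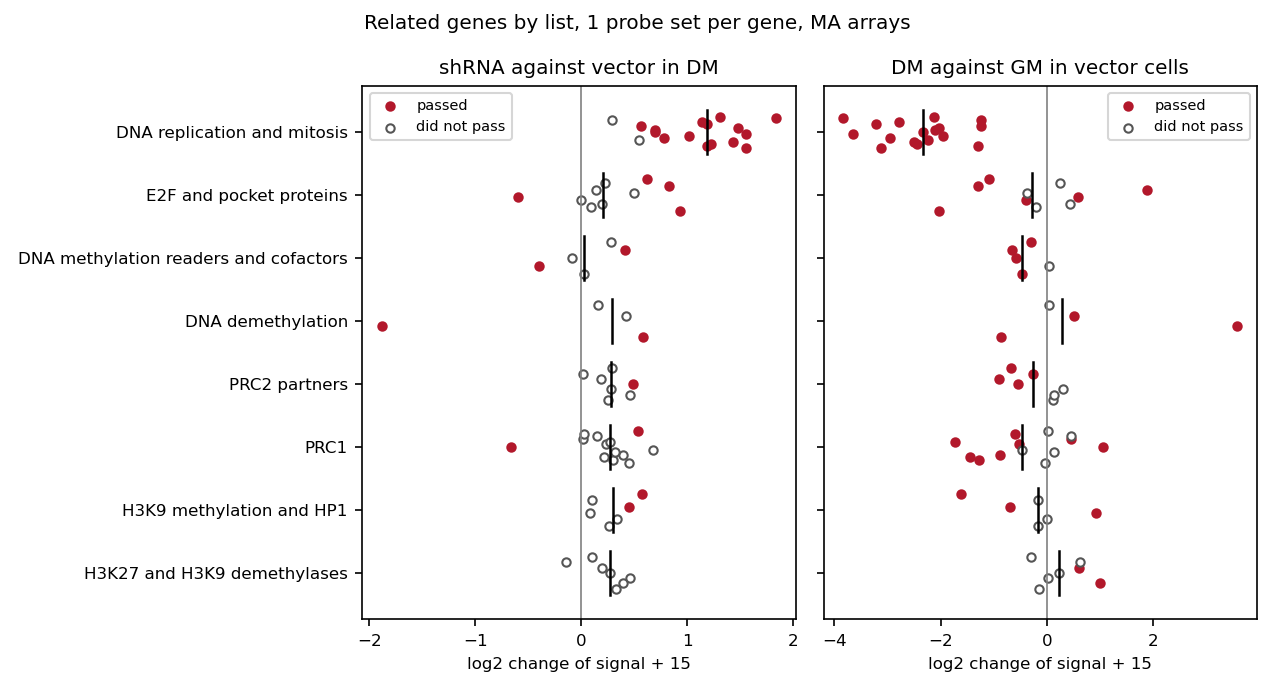
Log2 change of the tested genes of each list on the MA design, for DM against GM in vector cells and for shRNA against vector in DM; points are genes and bars list medians. Genes of DNA replication and mitosis have medians of -2.33 and 1.18, beside -0.25 and 0.29 for PRC2 partners.

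Genes of DNA replication and mitosis moved with the maintenance genes. Of 17 that were tested, of 18, 15 fell in shRNA cells in DM, where 17.5% of all tested probe sets fell, with a median of -1.03. In vector cells all 17 fell, with a median of -2.33, among them Tk1 (-3.83 ± 0.15), a thymidine kinase, Mcm5 (-3.65), a replication helicase subunit, and Plk1 (-3.21), a mitotic kinase. In DM 15 of 17 were higher with the shRNA, with a median of 1.18. In GM 4 were lower and 0 higher, against 2.57% and 3.99% of all, with a median of -0.27. The gap between media was higher and passed for 14 of 17, against 5.48% of all. The summed signal of the list was 7696 to 7820 in shRNA cells in DM, 4031 to 4496 in vector cells in DM, 16460 to 16940 in shRNA cells in GM and 19260 to 19560 in vector cells in GM. The part of cell division in the values of Dnmt1, Uhrf1 and Ezh2 was not tested. Among 10 tested E2F and pocket protein genes, E2f1, an activator of replication genes, fell by 2.04 in vector cells in DM and was higher with the shRNA in DM by 0.93, and Rbl1, a pocket protein, had -1.29 and 0.83. Rb1, the retinoblastoma gene, rose by 1.88 ± 0.24 in vector cells in DM. The list had 2 higher and 4 lower for DM against GM in vector cells, and 3 higher and 1 lower for the shRNA in DM.

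The muscle genes were lower with the shRNA in DM in 7 of 12, with a median of -0.57, and their summed signal was 44990 to 50200 in shRNA cells in DM against 54780 to 88530 in vector cells in DM, 2006 to 2170 in shRNA cells in GM and 2781 to 2973 in vector cells in GM. Fibroblast markers summed to 5637 to 6120 in shRNA cells in DM, 2606 to 3847 in vector cells in DM, 5162 to 5911 in shRNA cells in GM and 4235 to 4491 in vector cells in GM. Of 4 tested genes, 1 was higher with the shRNA in DM and 2 in GM. Of all tested probe sets, 10.7% and 3.99% were. Pdgfra was under 30 in every DM array. Adipocyte markers summed to at most 265.2 in DM, against 464.9 to 578.4 in shRNA cells in GM and 305.3 to 366 in vector cells in GM, with Fabp4 and Adipoq under 30 in all arrays, and macrophage markers to at most 266.2, with Ptprc and Itgam under 30 in all arrays. Osteoblast and cartilage markers summed to at most 298.8 in DM, with Alpl and Ibsp under 30 in all arrays. Of smooth muscle markers, 1 of 5 tested was higher with the shRNA in DM, and the list summed to 8507 to 10630 in shRNA and 7991 to 13170 in vector cells in DM. As a measure of RNA quality, the log2 difference between the 3′ and 5′ control sets, averaged over Actb and Gapdh, was -0.06 to 0.02 in shRNA cells in DM, -0.08 to 0.03 in vector cells in DM, 0.01 to 0.04 in shRNA cells in GM and 0.03 to 0.11 in vector cells in GM. The part of these in the members' values was not tested.

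The genes whose signal ran most like a member's were sought over the 12 MA arrays by Pearson's r, which in 4 groups mostly follows the group means and is given as a description. Nearest to Dnmt1 were Nrm (0.996), Ckap4 (0.995) and Tubb5 (0.994), and nearest to Uhrf1 were Pcolce, Birc5 and Tkt (each 0.994). Ezh2 ran most like Irs1 (0.958), Hmgb2 (0.957) and Lman1 (0.955). Ezh1 was nearest to Myh9 (0.94), Kansl2 (0.933) and Trappc3 (0.925), and Dnmt3a to Samd4 (0.934), Atp6ap2 (0.933) and Itfg1 (0.93). Eed ran most like Slirp (0.977), Sec62 (0.96) and Strn3 (0.958), and Suz12 like Pbrm1 (0.946), Psme4 (0.93) and Dnaja1 (0.925).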

How the data were processed

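The deposited values are linear intensities, 1 for each probe set of an array, made with MAS5 per the submitters' processing notes. The sources used here do not give its version, its settings or detection calls. The values show arrays scaled to a like trimmed mean (2% off each end). Groups and replicate numbers came from the titles. Probe sets were named through the platform annotation with symbols set against RefSeq GRCm38.p6, which changed 0 of them; of 22626 MA and 22511 MB probe sets without controls, 20380 and 14661 had 1 symbol, 691 and 245 several, 1555 and 7605 none. No pair of arrays was identical.

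For each design 4 group means were fitted to log2(signal + 15) of the 12 arrays in limma 3.58.1 (R 4.3.3), with 8 residual degrees of freedom, eBayes with a mean-variance trend and 5 contrasts. The median residual SD was 0.214 in MA and 0.523 in MB. The 2 designs were scaled and tested apart. Named genes were the members, Ddx5, up to 3 genes per list with the largest passing change, and the 3 most similar genes with a mean signal of at least 150. Members, lists and tests were chosen with earlier results of these data known. The fit was tested on simulated data: of probe sets changed by a log2 of 1 between DM and GM in vector cells, 79% were called in MA and 13% in MB. Alternatives were other pseudocounts (1 and 50), no filter or a filter at 100, quantile normalization, no trend, only the 6 arrays compared, a replicate block and leaving out each array. Suv39h1, several-symbol probe sets and unnamed ones were not used here.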

Additional observations from a re-analysis of the deposited data

Results flagged for a closer look

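The difference between shRNA and vector cells was larger in DM than in GM at 4 probe sets of the maintenance genes, by limma's test of the difference itself with Benjamini-Hochberg adjustment over all tested probe sets. The gap on the log2 scale was 1.161 at Dnmt1 1422946_a_at, 1.554 at Uhrf1 1415810_at and 1.394 at Uhrf1 1415811_at on the MA design. It was 2.663 at Dnmt1 1447877_x_at on the MB design. The call at Uhrf1 1415811_at was lost when any 1 of 4 arrays was left out (adjusted p up to 0.0565), and that at Dnmt1 1447877_x_at without a mean-variance trend (adjusted p 0.156). At the other Dnmt1 set, 1435122_x_at, the gap of 0.68 did not pass (adjusted p 0.167). Probe sets of 1 gene measure the same RNA. Groups of 3 arrays are too small for a test of outlying arrays.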

How the results depend on the processing

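Of 977 alternative values for 50 single probe set results, 924 kept their direction and side of the threshold. Dnmt1 1422946_a_at, Uhrf1 1415810_at and Ezh2 kept their calls for DM against GM in vector cells and for shRNA against vector in DM under every alternative run. With a signal minimum of 100, 1 member and not 3 was higher in DM in shRNA cells, and 0 and not 3 in vector cells, as fewer members were then tested. Leaving out single arrays gave 1 to 4 and 2 to 5 such members, and 0 to 1 MB members lower in DM in shRNA cells, where the main count was 0. Without a mean-variance trend 0 MB members, and not 1, had a gap between media; the cause was not tested. Directions turned only in results that had not passed: Suz12 1420021_s_at in vector cells was 0.021 with a pseudocount of 50 and -0.27 to 0.42 without single arrays, and for shRNA against vector in DM quantile normalization gave -0.03 for Eed and -0.079 for Ezh1. Without single arrays these lay at -0.071 to 0.17 for Eed, -0.16 to 0.23 for Ezh1 and -0.19 to 0.078 for Dnmt3a 1423063_at; in GM at -0.019 to 0.025 for Uhrf1 and -0.046 to 0.22 for Ezh2, and for the gap between media of Ezh1 at -0.26 to 0.12. Ezh1 minus Ezh2 in GM lay between -0.10 and 0.15.

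Over all probe sets, 2430 MA and 226 MB calls for the shRNA in DM became 1573 and 101 with only the 6 arrays compared. Without the trend MB calls were 19 and not 226 for the shRNA in DM, 527 and not 936 for DM in shRNA cells, 9 and not 53 for the shRNA in GM and 0 and not 75 for the gap. Quantile normalization gave 102 and 115 for these last 2. Leaving out single arrays gave 411 to 1478 MA calls for the shRNA in GM (942 with all) and 916 to 2045 for the gap (1430 with all). For MB it gave 126 to 230 calls for the shRNA in DM (226 with all), 14 to 74 for the shRNA in GM (53 with all) and 36 to 81 for the gap (75 with all), so the MB shares of called probe sets are loose.

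Replicate numbers were not used to pair the samples in the main fit. Deviations of same-numbered MA arrays correlated at 0.09 on average (-0.139 to 0.293), against -0.028 (-0.277 to 0.204) for arrays of unlike number. On the MB design the averages were 0.006 and -0.003. Such weak correlations cannot settle whether same-numbered arrays are paired. With a replicate block Ezh1 1449023_a_at lost its calls (-0.52, adjusted p 0.0538, in shRNA and -0.40, adjusted p 0.106, in vector cells), as did Suz12 1420021_s_at in shRNA cells (0.75, adjusted p 0.0505). The spread between MB arrays limits what that design can show.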

Other observations

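Among the E2F genes of the MB design, E2f7, a repressor of the family, was lower with DM in the vector line (-2.89 ± 0.17) and higher with the shRNA in DM (1.08 ± 0.17, adjusted p 0.0023). E2f2, an activator of the family on the same design, went the other way with medium: it was higher in DM in shRNA cells (2.18 ± 0.16, adjusted p 4.13e-08) and in vector cells (0.84 ± 0.16, adjusted p 0.00174). With the shRNA it was lower in GM (-1.49 ± 0.16, adjusted p 0.00017), and in DM the difference of -0.15 did not pass (adjusted p 0.831). The Suz12 set 1420020_at, which reached 30 in 1 array and was not tested, had 6.335, 26.66 and 37.5 in shRNA cells in DM. Vector cells in DM had 5.836, 2.532 and 6.536, so the groups overlapped, and vector cells in GM reached 19.61. Nothing is read from signals this low.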
